A study of Homo sapiens with 4 samples.

Results

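Described here are 4 connexin genes known from stratified or glandular epithelium, picked by symbol among the 25317 gene symbols of the deposited tables: GJA1, which encodes Cx43, the most widely expressed connexin; GJB2, which encodes Cx26, made in skin, inner ear and mammary gland; GJB5, a connexin of keratinocytes; and GJB6, which encodes Cx30 of skin and inner ear. All 4 were listed in each of the 3 tables. Gap junctions are clusters of channels that join the cytoplasm of neighbouring cells, and each channel is built from connexins, a family of membrane proteins that assemble as rings in the membrane of either cell. Ions and small molecules pass through them, and epithelia usually carry several connexins at once, which differ in the partners they accept and in the layers of the tissue where they are made. Zeb1 and Snail are factors of the epithelial-to-mesenchymal transition (EMT), in which cells give up junctions and polarity, and Ovol2 favours the opposite transition.

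The cells were MCF10A, an established non-tumour line of human mammary epithelium, grown in a serum-containing medium with epidermal growth factor, cholera toxin and insulin. They received the lentiviral vector pHIV-ZsGreen alone (the empty vector control, EV) or a vector for Zeb1, Snail or Ovol2, and the green cells were collected by sorting 6 days later, so all groups share infection, marker and sort. The promoter of the inserted gene and the number of cultures behind a library are not given in the sources used here. With 1 library for each of the 4 groups, no difference below has a replicate check, and no p-value or standard error is given. Levels are in FPKM, fragments per kilobase adjusted for the size of each library, which allows levels of different genes to be compared. In RNA from a sorted population of many cells, fewer cells of a kind and less RNA per cell cannot be told apart.

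Sequencing depth, read from the value of a single fragment in low genes, was about 24100000 to 34300000 fragments per library. The delivered genes matched the labels: ZEB1, SNAI1 and OVOL2 each reached their highest level in the library named for them, at 17.3, 99.7 and 78.3 FPKM. Markers of basal mammary epithelium (KRT5, KRT14, TP63, CDH3, ITGA6) were all at 1 FPKM or more in every library, with a summed level of 3477 FPKM for EV, 941 for Zeb1, 2520 for Snail and 377 for Ovol2. A luminal list (KRT8, KRT18, KRT19, ESR1) summed to 200, 118, 240 and 172 FPKM in the same order, mainly through KRT8 and KRT18. Of the other cell types, the defining lymphoid and leukocyte genes CD3E and PTPRC were at 0.0177 FPKM or below in each library. Of the endothelial list (PECAM1, VWF, CDH5, KDR), 0 of 4 genes reached 1 FPKM with EV, Zeb1 or Snail, and 1 did with Ovol2, namely VWF at 1.29 against 0.00389 with EV, a gene called higher by the 2-fold rule used below; CDH5 was at 0.118 or below. That list summed to 1.54 FPKM with Ovol2 and to 0.0591 to 0.141 in the others. The summed immune list was nonetheless 21.8 FPKM in the Zeb1 library, mainly through CD14 (17.0), against 3.07 to 7.59 in the others. CD68, also of that list, was at 1.76 FPKM with EV, 4.86 with Zeb1, 2.24 with Snail and 5.09 with Ovol2. By the 2-fold rule used below it was called higher with Zeb1 and with Ovol2. The neural and muscle list summed to 39.7 FPKM with Zeb1 and 14.2 with Snail, mainly through MAP2 and ACTA2, against 3.94 for EV and 1.99 for Ovol2. The part of the endothelial, immune, and neural and muscle lists in the results was not tested.

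GJA1, GJB2 and GJB5 were all highest in the Ovol2 library, and promoter sequence is shown for GJA1 and GJB2 of these and for GJB6, the coding gene next to GJB2 on chromosome 13, which was almost unread. RefSeq's promoter table (build GRCh38.p14, a later build than the hg19 of the expression values) held these 3 of the 4 genes, and GJB5 was not matched. Each stretch has 260 bases, 250 before the annotated start and 10 from it on, written 5′ to 3′ on the gene's own strand. Capitals mark matches to 4 motifs: the E-box CAGGTG or CACCTG that Zeb and Snail proteins bind, the AP-1 site TGANTCA, the GC box GGGCGG or CCGCCC, and CCGTTA or TAACGG, the core known for OVOL proteins.
GJA1, chr6:121435396-121435655, plus strand: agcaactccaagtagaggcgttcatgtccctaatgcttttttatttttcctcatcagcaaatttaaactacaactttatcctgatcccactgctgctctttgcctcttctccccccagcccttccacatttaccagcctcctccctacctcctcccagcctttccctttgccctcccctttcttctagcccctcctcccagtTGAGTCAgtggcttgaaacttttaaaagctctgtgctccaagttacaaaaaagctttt
GJB2, chr13:20192929-20193188, minus strand: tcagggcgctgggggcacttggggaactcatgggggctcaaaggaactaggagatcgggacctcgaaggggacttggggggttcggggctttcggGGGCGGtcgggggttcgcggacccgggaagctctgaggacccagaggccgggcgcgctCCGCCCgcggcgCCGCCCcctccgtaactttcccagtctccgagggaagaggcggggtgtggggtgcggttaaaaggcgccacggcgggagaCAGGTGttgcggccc
GJB6, chr13:20230969-20231228, minus strand: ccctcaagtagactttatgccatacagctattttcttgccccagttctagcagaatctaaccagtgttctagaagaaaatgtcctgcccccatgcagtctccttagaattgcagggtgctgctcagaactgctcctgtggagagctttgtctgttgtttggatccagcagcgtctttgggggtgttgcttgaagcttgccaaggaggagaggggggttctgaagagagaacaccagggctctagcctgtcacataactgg
Both strands were searched, and no match overlapped another. The GJA1 stretch held 1 AP-1 match, TGAGTCA, from base -48 to -42 before the start, a motif present in 6.92% of 35116 annotated promoters of the same length. The GJB2 stretch held 1 E-box, CAGGTG, from base -5 to base 1 of the transcript (18.1% of promoters hold one) and 3 GC boxes (43.1%). The OVOL core was in none of these stretches and in 2.58% of all promoters. GC content was 46.9% for GJA1, 70.4% for GJB2 and 50.4% for GJB6. A match is a run of letters and not a bound site.

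In the EV library, the control, the 4 genes ranged from 23.5 FPKM to unread. GJB5 stood at 23.5 FPKM (95% counting interval 22.0 to 25.0, from about 925 fragments), GJB2 at 1.85 FPKM (1.54 to 2.20, about 127 fragments), and GJA1 at 0.536 FPKM (0.397 to 0.709, about 49 fragments). GJB6 was listed at 0, where 3 fragments would have made 0.0483 FPKM. These intervals are exact Poisson limits on fragment numbers estimated from depth and transcript length, and they cover counting error only. In the EV library GJB5 and, at a low level, GJB2 thus reached 1 FPKM, whereas GJA1 lay under it and GJB6 was not detectable at this depth.

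**Figure D1:**
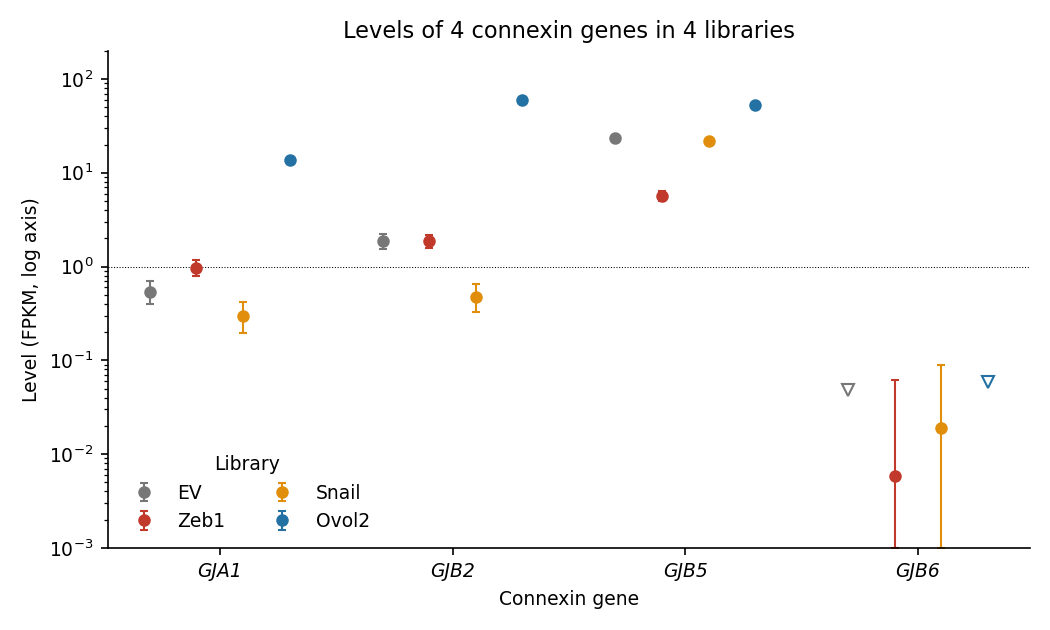
Level of each gene in the EV, Zeb1, Snail and Ovol2 libraries in FPKM on a log axis, with 95% Poisson intervals for counting error. Open triangles mark libraries where GJB6 was listed at 0, drawn at the value of 3 fragments, and the dotted line is 1 FPKM; GJA1, GJB2 and GJB5 have their highest point in the Ovol2 library.

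GJB2 was at 1.85 FPKM with EV, 1.86 with Zeb1, 0.472 with Snail and 60.3 with Ovol2. One library stood far above the rest, Zeb1 was level with the control, and Snail was the lowest. From the second to the third place of this order the fold was 1.00, from Zeb1 to Ovol2 it was 32.5, and the control was 3.92-fold above Snail. Counting intervals in the Snail library (0.329 to 0.656 FPKM, about 35 fragments) and the EV library did not overlap. From lowest to highest library the gene spanned 128-fold.

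GJA1 was at 0.536 FPKM with EV, 0.965 with Zeb1, 0.295 with Snail and 13.6 with Ovol2. As for GJB2, Ovol2 was highest, here 14.1-fold above Zeb1. Zeb1 was 1.80-fold above the control and the control 1.82-fold above Snail, steps under 2-fold from which no order is read. The 3 lower values (Zeb1, EV and Snail) rest on about 104, 49 and 29 fragments, and all lie under 1 FPKM. The mesenchymal markers VIM, FN1, CDH2 and ZEB1 (itself the delivered gene) summed to 4192 FPKM in the Zeb1 library, of which FN1 made 3982. Their sum was 107 for EV, 675 for Snail and 7.80 for Ovol2. GJA1, which fibroblasts also express, had a counting interval of 0.789 to 1.17 FPKM with Zeb1, and was at 0.295 with Snail and 13.6 with Ovol2. A link between these markers and GJA1 was not tested.

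GJB5 was at 23.5 FPKM with EV, 5.70 with Zeb1, 21.8 with Snail and 52.2 with Ovol2. It was the only one of the 4 whose lowest library was Zeb1, and Snail was close to the control, with a fold of 1.08 between them and overlapping counting intervals (20.4 to 23.2 FPKM in the Snail library). Ovol2 was 2.23-fold above the control, and Snail 3.82-fold above Zeb1.

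GJB6 was listed at 0 for EV and Ovol2, at 0.00581 FPKM for Zeb1 and at 0.0189 FPKM for Snail. These are values of about 0.4 and 1.3 fragments, under the 3 fragments taken as the limit of detection, so no order is read from them. In the Ovol2 library 3 fragments would have made 0.0583 FPKM. Its neighbour GJB2 was at 60.3 FPKM there.

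For the comparisons with the control, FPKM + 1 with the factor was divided by FPKM + 1 with EV and the log2 taken, a scale that understates the difference of low genes. A gene was counted when it had at least 1 FPKM in either library of the pair, and it was called higher or lower past 2-fold on that scale, where the log2 ratio reaches 1 or -1. This is a rule of size and not a test. The 3 comparisons share the EV library, so an odd value there would move all of them.

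With Ovol2, 3 of the 4 connexins were above the filter and all 3 were called higher, while 6.82% of 11812 genes were called higher and 25.1% lower in that comparison. GJB2 had a log2 ratio of 4.43 and a plain fold of 32.6, GJA1 3.25 and 25.4, and GJB5 1.12 and 2.23. GJA1 passed the filter only through the Ovol2 library, so it could not have been called lower. The median log2 ratio over all counted genes was -0.51, and it depended on scaling: dividing by the upper quartile moved it to 0.26. The shares called moved too, to 2790 higher and 898 lower of 12221 genes with that scaling. For GJB5 the call rested on the scaling too. When RMRP and RPPH1, 2 short RNAs that held 40.6% of all FPKM in the Ovol2 and 24.6% in the EV library, were left out of the sum, its log2 ratio was 0.90 and the call was lost. Over all genes that sum gave 569 higher and 3790 lower of 11746.

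Genes of the suprabasal and stressed epidermis were higher in the same library. Their list (KRT1, KRT10, KRT16, KRT6B, IVL, SPRR1B) had 6 of 6 members at 1 FPKM or more there and 5 in the EV library, and it summed to 1575 FPKM with Ovol2 against 67.4 with EV, 30.3 with Zeb1 and 48.0 with Snail. KRT16, a keratin of stressed epidermis, was at 965 FPKM, and SPRR1B, a cornified envelope protein, at 391. Basal keratin KRT5 went the other way, from 2929 FPKM in the EV to 215 in the Ovol2 library. The part of such cells in the connexin values was not tested. A general epithelial list (CDH1, EPCAM, ESRP1) was not higher with Ovol2, and summed to 57.9 FPKM there against 89.3 with EV. CDH1 was at 30.8 against 60.4 FPKM (log2 ratio -0.95), EPCAM at 5.51 against 6.61 (-0.22) and ESRP1 at 21.6 against 22.4 (-0.05). None of them was called by the 2-fold rule, and these levels also depend on the scaling between libraries.

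With Zeb1, 2 of the 4 connexins were above the filter, GJB5 was called lower and none higher, where 8.49% of 11922 genes were called lower and 4.52% higher. Over all genes that direction turned with the scaling, to 817 higher and 699 lower after upper quartile scaling and to 1017 and 605 with a common sum without RMRP and RPPH1. GJB5 had a log2 ratio of -1.87 and was 4.11-fold lower in plain FPKM. GJB2, at 0.00 on the log2 scale, lay level with the control, although CDH1, the epithelial cadherin, stood at 9.99 against 60.4 FPKM in the same pair of libraries. GJA1 stayed under 1 FPKM in both libraries and was not counted, with a log2 ratio of 0.36.

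With Snail, 2 of the 4 were above the filter and 0 were called, where 1.00% of 11644 genes were called higher and 1.50% lower. GJB2 came near the limit, with a log2 ratio of -0.95. On the plain scale it was 3.92-fold lower, so its failure to be called was due to the pseudocount of 1 FPKM, and it was called with a pseudocount of 0.1 (-1.77) and after centring (-1.09). GJB5 was at -0.10 and GJA1, not counted, at -0.25. The 2 EMT factors thus lay differently over the connexins: GJB5 stood at 5.70 FPKM with Zeb1 and 21.8 with Snail, and GJB2 at 1.86 with Zeb1 and 0.472 with Snail. Without replicates these differences between the factors were not tested.

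**Figure D2:**
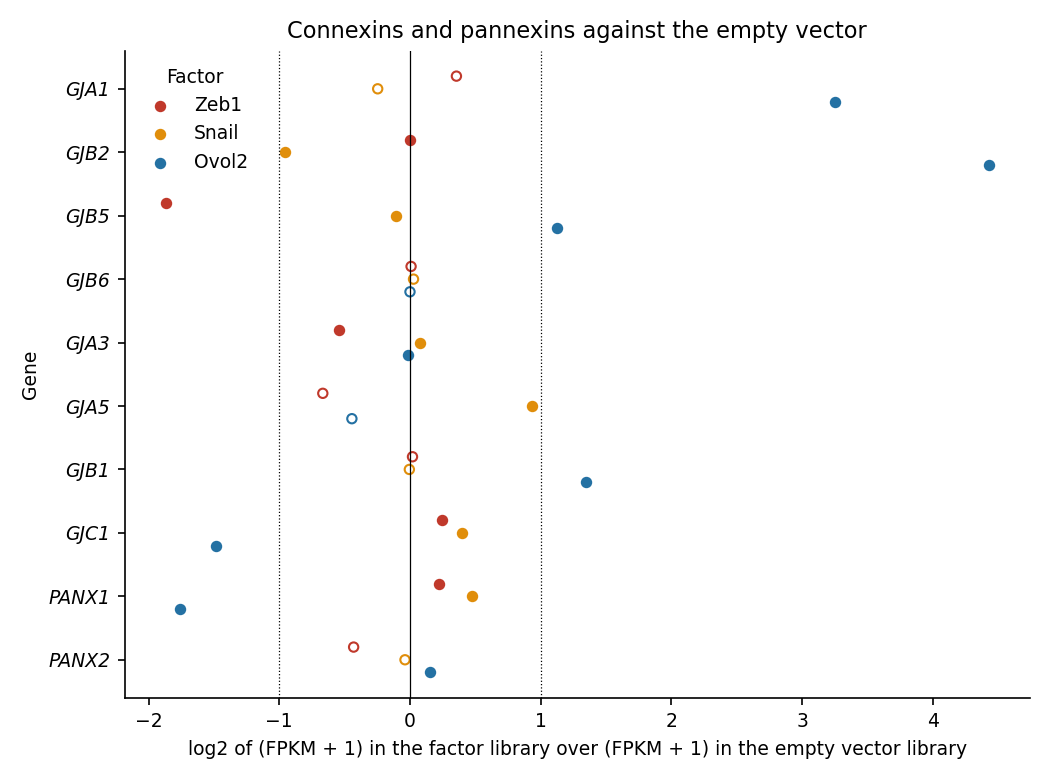
Log2 ratio of FPKM + 1 against the EV library for the 4 connexins, then for other connexins and pannexins that reached 1 FPKM in any library, with 1 point per factor. Open points did not reach 1 FPKM in either library of the pair, and dotted lines mark 2-fold; GJA1 and GJB2 lie far to the right for Ovol2, and GJB5 to the left for Zeb1.

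Further members of the family were read from a list of 15 connexins besides the 4, of which the files held 14, and of 3 pannexins, membrane channel proteins of similar topology that mostly act without a partner in the next cell. With Zeb1, 3 of these connexins and pannexins were counted and 0 were called. GJA3, a connexin of the lens, came nearest at 0.465 against 1.13 FPKM (-0.54). With Snail, 0 of 4 were called, and GJA5, a connexin known from vessels and the heart, came nearest at 2.64 against 0.906 FPKM (0.93). GJA5 passed the filter only through the Snail library, so it could not have been called lower.

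With Ovol2, 5 of them were counted, of which 1 was called higher and 2 lower, beside 6.82% and 25.1% of all genes. GJB1, which encodes Cx32 of liver and glandular epithelium, was at 1.55 FPKM in the Ovol2 library and at 0.0168 FPKM or below in the other libraries (log2 ratio 1.35), and it passed the filter only through the Ovol2 library. PANX2 was at 1.15 against 0.931 FPKM (0.15), and also passed the filter only through the Ovol2 library. GJC1, which encodes Cx45, was the 1 connexin of the list called lower: it was at 2.36 FPKM with EV, 2.99 with Zeb1, 3.43 with Snail and 0.203 with Ovol2 (-1.48). PANX1, the main pannexin of these cells, was at 14.6, 17.2, 20.7 and 3.61 FPKM in the EV, Zeb1, Snail and Ovol2 libraries (-1.76 for Ovol2), a call that upper quartile scaling ended (-0.99).

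The shares of the 4 genes within a library do not depend on the scaling between libraries. The summed level of the 4 genes does depend on it, and was 25.8 FPKM with EV, 8.53 with Zeb1, 22.5 with Snail and 126 with Ovol2. GJB5 made up 90.8% of that sum with EV, 66.9% with Zeb1, 96.5% with Snail and 41.4% with Ovol2. GJB2 made up 7.16%, 21.8%, 2.09% and 47.8% in the same order, and GJA1 2.08%, 11.3%, 1.31% and 10.8%. GJB5 thus led in the EV, Zeb1 and Snail libraries, and GJB2 in the Ovol2 library.

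**Figure D3:**
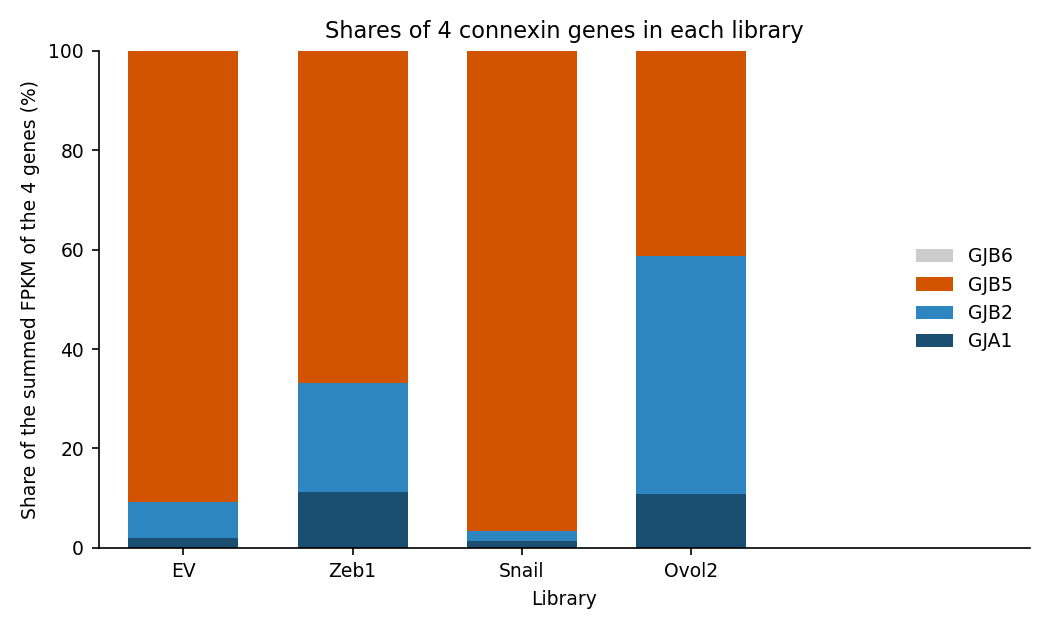
Share of GJA1, GJB2, GJB5 and GJB6 in the summed FPKM of these 4 genes, in percent, with 1 bar for each of the EV, Zeb1, Snail and Ovol2 libraries. GJB5 fills 66.9% to 96.5% of the bar in the EV, Zeb1 and Snail libraries and 41.4% in the Ovol2 library, where GJB2 fills 47.8%; GJB6 is too low to be seen.

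In RefSeq's order of coding genes, GJA3, GJB2 and GJB6 follow each other on chromosome 13, and they differed in their levels. In the Ovol2 library, where GJB2 was at 60.3 FPKM, GJA3 was at 1.11 against 1.13 FPKM with EV on one side of it, and GJB6 was listed at 0 on the other.

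Gap junctions depend on other proteins for assembly and removal, and a list of 27 such partners was read in the same way, of which 25 were counted in each comparison. With Ovol2, 1 was called higher and 9 lower (median log2 ratio -0.91, against -0.51 over all genes), where 6.82% of all genes were called higher and 25.1% lower. The lower ones were the scaffold TJP1 (ZO-1), which binds the tail of Cx43, at 2.29 against 10.7 FPKM (-1.83), the actin binder DBN1 (drebrin) at 2.71 against 21.4 (-2.59), the ubiquitin ligase NEDD4, which marks Cx43 for removal, at 1.73 against 16.2 (-2.65), CAV1 of caveolae (-1.70), the desmosomal DSP (-1.43), CDH2 (-1.01) and the kinases SRC (-1.16), CSNK1D (-1.12) and AKT1 (-1.40), which can phosphorylate Cx43. TSG101, a sorting factor for lysosomal breakdown, was the higher one, at 40.3 against 18.0 FPKM (1.12). Scaling moved these calls. With a common sum without RMRP and RPPH1, 0 were called higher, TSG101 being at 0.90, and 14 lower. Centring ended the calls of CDH2 (-0.84), SRC (-0.99) and CSNK1D (-0.95). With upper quartile scaling, which gave 2790 higher and 898 lower over all genes, 2 partners were called higher and 3 lower, namely TSG101 and MAPK3 on the one side and TJP1, DBN1 and NEDD4 on the other.

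With Zeb1, 1 partner was called higher, CDH2 (2.47), and 3 lower, CDH1 (-2.48), PRKCD (-1.39) and DSP (-1.09), with a median of -0.03 against -0.09 over all genes, of which 4.52% were called higher and 8.49% lower. The call of DSP ended after centring (-0.97), upper quartile scaling (-0.88) and a common sum without RMRP and RPPH1 (-0.78). TJP1 was at 17.2 against 10.7 FPKM (0.63). With Snail 0 of 25 were called (median 0.21 against 0.12), and CDH2 came nearest at 3.11 against 1.23 FPKM (0.88), which a pseudocount of 0.1 turned into a call.

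**Figure D4:**
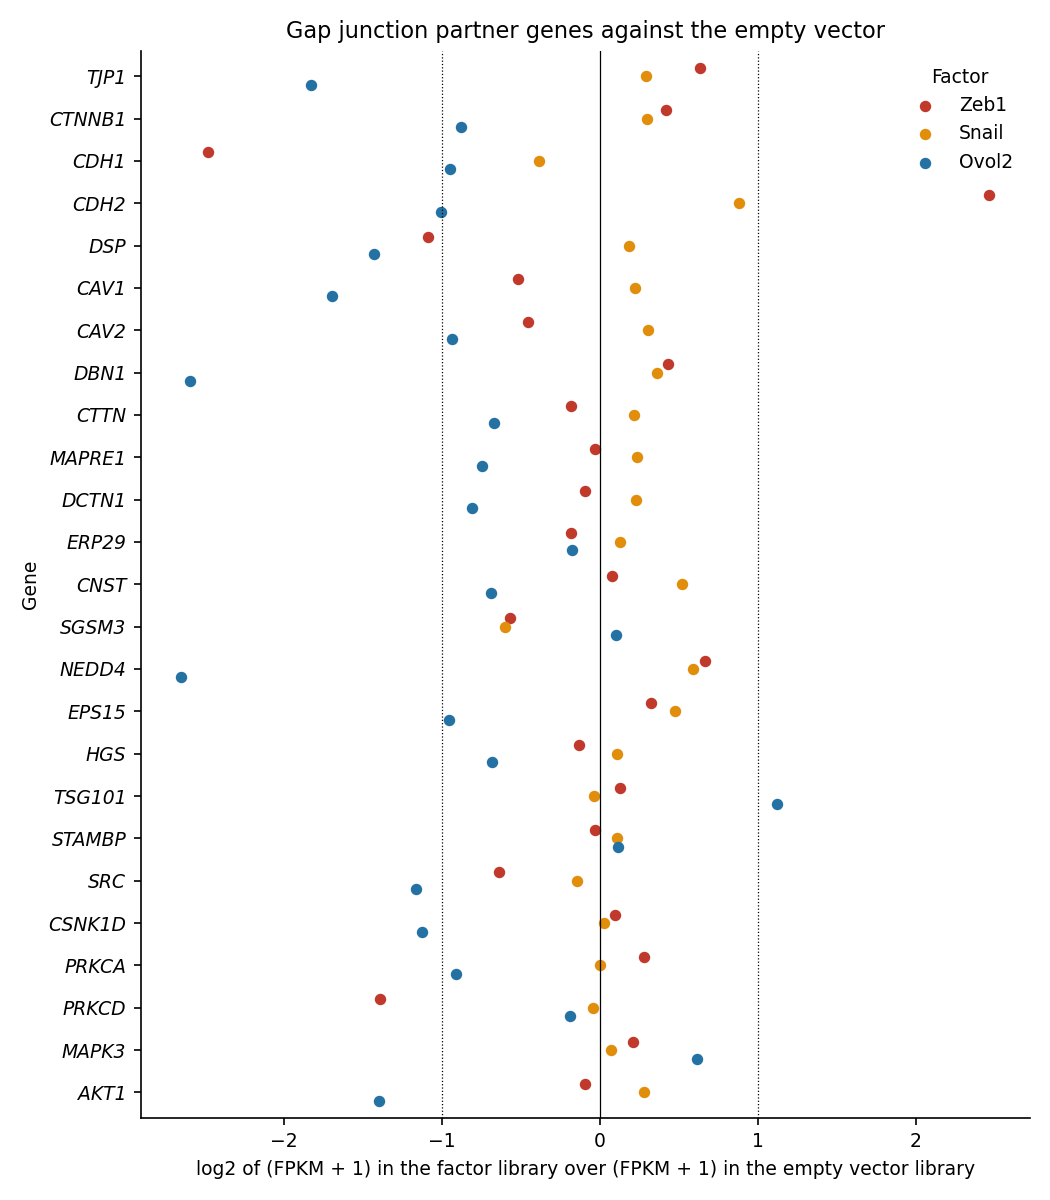
Log2 ratio of FPKM + 1 against the EV library for the 25 counted partner genes, with 1 point per factor and dotted lines at 2-fold. Snail points lie between the lines, and for Ovol2 NEDD4, DBN1, TJP1 and CAV1 lie farthest to the left.

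Genes with the most similar pattern were looked up by the Euclidean distance between the 3 log2 ratios against the control, over all genes at 1 FPKM or more in any library. For GJA1 the 5 nearest were GCHFR (distance 0.30), KRT80 (0.32), PADI4 (0.40), TCN1 (0.43) and LYPD2 (0.44). KRT80, an epithelial keratin, was at 0.343, 0.567, 0.140 and 14.6 FPKM in the EV, Zeb1, Snail and Ovol2 libraries. For GJB2 they lay farther off and were GDF15 (0.51), GGT6 (0.72), KLK10 (0.74), VILL (0.77) and ALDH1A1 (0.78). GDF15, a secreted stress factor of the TGF-beta family, was at 3.20, 2.39, 1.54 and 71.0 FPKM. Apart from GCHFR and GDF15, these neighbours were under 1 FPKM with EV, Zeb1 and Snail and entered only through the Ovol2 library. The pseudocount presses their Zeb1 and Snail ratios towards 0, so their likeness rests largely on the Ovol2 level.

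For GJB5 the nearest were ID1 (0.20), COMTD1 (0.20), GSTP1 (0.24), EXOSC5 (0.29) and AIM1L (0.37), and ID1, an inhibitor of basic helix-loop-helix factors, was at 84.3, 22.3, 68.5 and 179 FPKM. GJB6 was left out, since its pattern lies at the limit of detection. The distances rest on 4 libraries that share a control and describe likeness of pattern only.

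**Figure D5:**
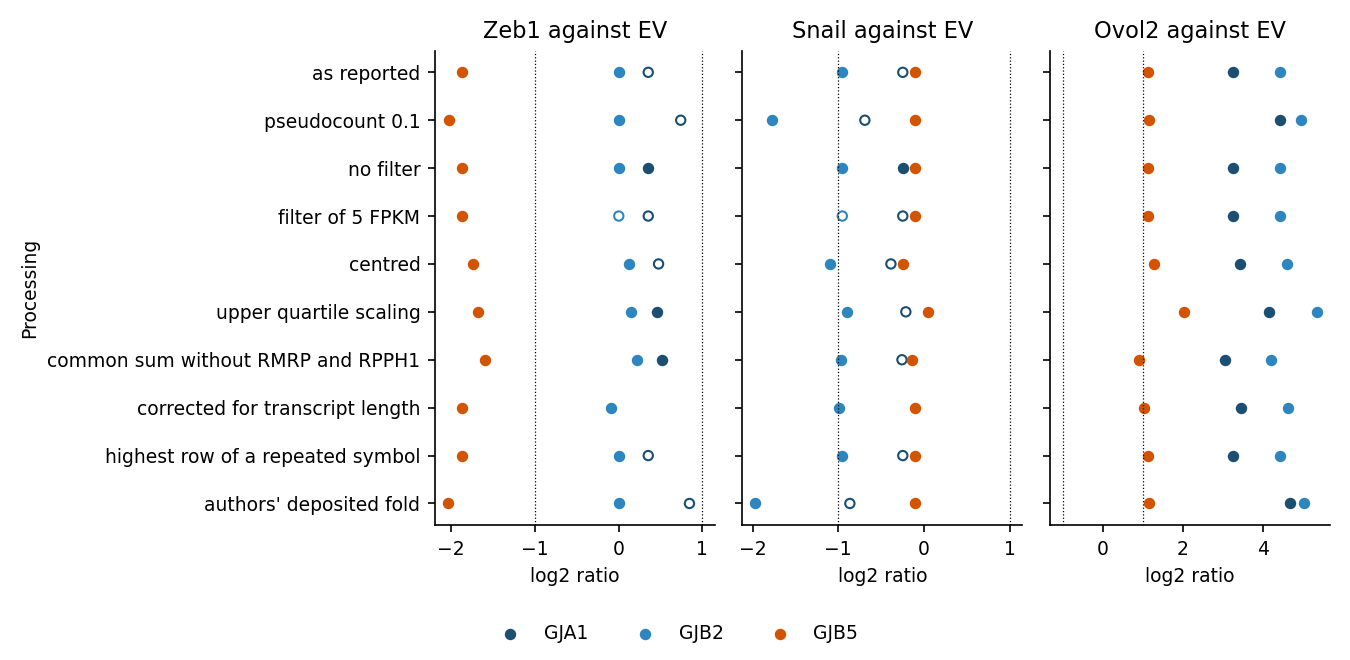
Log2 ratio of GJA1, GJB2 and GJB5 against the EV library as reported and under each alternative processing, with 1 panel per factor, dotted lines at 2-fold and open points for genes under the filter. The authors' deposited fold has no pseudocount; GJA1 and GJB2 stay right of the upper line for Ovol2 throughout, and GJB2 with Snail lies on either side of the lower line.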

How the data were processed

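Per the labels' protocols, total RNA of sorted MCF10A cells was made into TruSeq RNA libraries. Reads were processed with TopHat, Cufflinks and Cuffdiff on build hg19, per the submitters' processing notes. Versions and annotation are not given in the sources used here. No header names the unit of the values that the authors deposited, and they were read as FPKM because low values step in single fragments per transcript length. Any scaling between libraries is not stated. Each of the 3 deposited tables also holds the authors' signed fold score, used as an alternative, and a Benjamini-Hochberg adjusted p-value that the authors deposited, which compares 1 library with 1 library and was not used.

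Each table had 25360 rows with 25317 symbols, and repeated symbols were summed. EV values were the same in all 3 tables. Depth was read from the peak of single-fragment values among single-transcript genes (GENCODE lengths, at least 600 bases, values below 0.2 FPKM). Fragment numbers used the longest RefSeq-linked transcript and are approximate. Log2 ratios used a pseudocount of 1 FPKM, a minimum of 1 FPKM in either library and a 2-fold rule (Python 3.11.15, pandas 2.3.3, scipy 1.17.1). Depth reading and fold calls were tested on simulated data. These held counting error only, used the same transcript lengths as the reading, and had changes well past 2-fold in well expressed genes. They could not test spread between cultures, the authors' unknown transcript lengths or changes in genes at a low level.

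The members and lists were chosen with earlier results of these data known. Named genes were the 4 connexins, other connexins and pannexins at 1 FPKM or more, partners past 2-fold, the 5 nearest patterns per connexin, the delivered factors, cell type markers and a list of factors known or proposed at connexin genes; those a little under 2-fold, GJA3 and TJP1 with Zeb1 were named after their values were seen. Alternatives changed the pseudocount, filter, scaling, length trend, repeated symbols and source of the fold. Some genes of the lists are not reported here, and the counts and sums of the lists leave them out.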

Additional observations from a re-analysis of the deposited data

How the results depend on the processing

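Of 79 alternative values of the GJA1, GJB2 and GJB5 log2 ratios, 27 were the reported values themselves, since no filter, a filter of 5 FPKM and the highest row of a repeated symbol leave these ratios as they are. Of the 52 that differed, 48 kept their side of the 2-fold rule, 3 gained a call and 1 lost it. Among the 48, values of GJA1 under the filter with Zeb1 or Snail could not have been called. Of the 52, 2 had the other sign, both of ratios near 0. GJB2 with Snail gained the call with a pseudocount of 0.1 (-1.77), after centring on well expressed genes (-1.09) and with the authors' deposited fold (-1.97, no pseudocount), so that 1 of the 4 connexins was called there in place of 0. GJB5 with Ovol2 lost it with a common sum without RMRP and RPPH1 (0.90). GJA1 and GJB2 with Ovol2 and GJB5 with Zeb1 were called under each alternative run, with ranges of 3.04 to 4.67, 4.21 to 5.35 and -2.04 to -1.59.

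Of the other connexins and pannexins, 1 in place of 0, GJA3, was called with Zeb1 with a pseudocount of 0.1 and with the deposited fold. With Snail 1 in place of 0, GJA5, was called in both of these and with upper quartile scaling. With Ovol2 a filter of 5 FPKM left 1 in place of 3. Among the partners 1 in place of 0, CDH2, was called with Snail with a pseudocount of 0.1 and with the deposited fold, and 5 in place of 10 with Ovol2 after upper quartile scaling.

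Over all genes, the calls for Zeb1 numbered 1551 and became 2426 with a pseudocount of 0.1 and 2559 with the deposited fold. For Snail 292 became 578, 633 and, at 5 FPKM, 193. The share of higher calls moved from 34.8% to between 48.1% and 62.7% with other scalings for Zeb1, from 40.1% to between 23.7% and 56.1% for Snail, and from 21.4% to between 13.1% and 75.7% for Ovol2.

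No paired analysis was possible because each group held 1 library, and no replicate was left out. Depth limits GJB6 in all libraries. Few fragments also underlie GJA1 with EV, Zeb1 and Snail (about 29 to 104) and GJB2 with Snail (about 35).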

Other observations

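Factors known or proposed at connexin genes were read as levels only. The AP-1 subunits FOS and JUN were at 320.5 and 51.8 FPKM in the EV library and at 185 and 12.2 in the Ovol2 library, where GJA1, whose start has an AP-1 match, was at 13.6 FPKM against 0.536. SP1, a factor of GC boxes, was at 8.65 FPKM in the EV and 3.84 in the Ovol2 library. The grainyhead-like factors GRHL1 and GRHL3 were at 0.689 and 0.567 FPKM in the EV library and at 14.5 and 6.21 in the Ovol2 library, while GRHL2 was at 14.5 against 8.92. TP63, the regulator of basal epithelium, was at 23.9 FPKM with EV, 4.06 with Zeb1, 15.7 with Snail and 8.23 with Ovol2. TBX3 was at 5.32 FPKM in the Zeb1 library and at 1.25 in the EV, and TBX2 was between 0.264 and 0.396 FPKM in the 4 libraries. TFAP2A was between 2.72 and 4.30 FPKM and TFAP2C between 2.64 and 5.19. KLF4, an epithelial factor, was at 14.9 FPKM with EV and Snail, 6.51 with Zeb1 and 8.73 with Ovol2. Which of these, if any, bears on a connexin was not tested.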
